A study of Mus musculus with 24 samples.

Results

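A set of 10 genes of inflammatory signalling was followed across RNA-seq libraries of mouse blood stem and progenitor cells. They were picked by symbol from the 55487 genes of the count table, and all 10 passed the filter on low counts. They comprise the CC chemokines Ccl3, Ccl4, Ccl6 and Ccl9, the CXC chemokine Cxcl2, the cytokines Il1b and Tnf, and the NF-kB feedback genes Nfkbia, Nfkbiz and Tnfaip3. The choice rested in part on measured values, since Ccl3 was known to differ from wild type in opposite directions at the ages sampled. Values for MLL::ENL against wild type at those ages are therefore given as a description without a p-value, as are all values of Ccl3, since every comparison here shares a group with that choice.

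The series held 24 libraries in 6 groups of 4, from a Tet-off mouse model that expresses the human leukaemia fusion MLL::ENL (ME) and was sampled by age of induction and age of analysis. The labels call the sorted cells LSK, a Lineage-negative, Sca-1-positive, KIT-positive population rich in blood stem cells, while the design text speaks of Lineage-negative KIT-positive progenitors. The groups at postnatal day 0 (P0), both from liver, were wild type (P0 WT) and ME animals with the fusion switched on at embryonic day E10.5 (P0 ME). The P28 groups, from bone marrow, were wild type (P28 WT), E10.5-induced ME, P0-induced ME, and E10.5-induced ME mice labelled RLT Vav Txp, a name the labels do not spell out. The promoter that drives the transgene, and any allele carried by the wild-type mice, are not given in the sources used here. The design text calls the 4 libraries of a group biological replicates. Because each age was sampled from its own tissue, liver at P0 and marrow at P28, an effect of age cannot be told apart from one of tissue.

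Chemokines are small secreted proteins that guide leukocytes through G protein-coupled receptors. CCL3, CCL6 and CCL9 are ligands of CCR1, and CCL6 and CCL9 are made by myeloid cells. CXCL2 recruits neutrophils through CXCR2. Interleukin 1 beta and TNF are secreted mainly by activated macrophages and switch on NF-kB in other cells. NF-kB dimers wait in the cytoplasm bound to IkB proteins, and IkB kinase marks the IkB for destruction. The freed dimers then induce their own brakes: NFKBIA (IkB alpha), the nuclear cofactor NFKBIZ (IkB zeta) and the ubiquitin-editing enzyme TNFAIP3 (A20). In blood stem cells these signals are known to favour myeloid output.

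The CC chemokine members lie within 1 cluster on chromosome 11 (GRCm38, GENCODE M21): Ccl9 at 83572919 to 83578636, Ccl6 at 83587882 to 83593087, Ccl3 at 83647844 to 83649355 and Ccl4 at 83662584 to 83664683. Ccl4 is on the plus strand and the others are on the minus strand. The remaining members are on chromosomes 5 (Cxcl2), 2 (Il1b), 17 (Tnf), 12 (Nfkbia), 16 (Nfkbiz) and 10 (Tnfaip3).

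Promoter sequences from RefSeq (GRCm38.p6) were found for 8 of the 10 members, and Ccl4 and Nfkbiz had no entry. The 250 bases before each RefSeq start were searched on both strands for the kappaB consensus that NF-kB dimers bind. For Cxcl2 that start lies inside the annotated gene, and the 222 bases before the gene are shown. A match occurred in 4 of the 8 members searched (Ccl9, Cxcl2, Nfkbia and Tnfaip3), against 7.25% of 32851 promoters in that table. These promoters are shown because they set the inducible chemokine Cxcl2 and the feedback gene Nfkbia beside Ccl9, a cluster gene with a match, and Ccl3, the gene whose direction turned with age. They are written 5′ to 3′ on the gene's own strand, and capitals mark kappaB matches.
Ccl3, chr11:83649379-83649628, minus strand, no match: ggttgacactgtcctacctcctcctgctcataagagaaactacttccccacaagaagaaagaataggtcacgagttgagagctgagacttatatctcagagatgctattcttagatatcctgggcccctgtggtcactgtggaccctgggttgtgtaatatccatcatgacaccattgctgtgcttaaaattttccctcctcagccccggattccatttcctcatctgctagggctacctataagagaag
Ccl9, chr11:83578637-83578886, minus strand: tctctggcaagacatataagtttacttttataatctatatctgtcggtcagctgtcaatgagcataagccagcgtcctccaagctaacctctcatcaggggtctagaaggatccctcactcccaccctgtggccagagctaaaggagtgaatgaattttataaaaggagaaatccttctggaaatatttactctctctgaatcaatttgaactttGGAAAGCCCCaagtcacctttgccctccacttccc
Cxcl2, chr5:90903649-90903870, plus strand: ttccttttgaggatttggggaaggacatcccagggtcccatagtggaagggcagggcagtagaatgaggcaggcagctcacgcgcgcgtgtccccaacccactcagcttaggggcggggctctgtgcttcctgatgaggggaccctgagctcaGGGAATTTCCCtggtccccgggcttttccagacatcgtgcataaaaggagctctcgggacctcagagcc
Nfkbia, chr12:55492648-55492897, minus strand: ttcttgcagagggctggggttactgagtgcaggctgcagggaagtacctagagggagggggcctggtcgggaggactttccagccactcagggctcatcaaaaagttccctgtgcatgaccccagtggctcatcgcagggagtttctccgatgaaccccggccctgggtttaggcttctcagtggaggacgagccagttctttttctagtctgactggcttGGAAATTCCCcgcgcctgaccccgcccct
The match in Ccl9 spans 35 to 26 bases before the start, and that in Nfkbia 29 to 20 bases. In Cxcl2, 2 overlapping matches on opposite strands, GGGAATTTCC and GGAATTTCCC, span 97 to 87 bases before the start. Tnfaip3 held GGGACACCCC, which matches on both strands, at 125 to 116 bases and GGAAATCCCC at 12 to 3 bases. The AP-1 motif TGANTCA, bound by FOS and JUN dimers, occurred in 2 members (Ccl9 and Tnfaip3) and in 6.75% of promoters. The TATA box TATAAA occurred in 4 members (Ccl9, Il1b, Tnf and Tnfaip3) and in 12.4% of promoters. These matches describe letters in a window and are not measured binding sites. Their positions are counted from the RefSeq start. The Tnfaip3 promoter is not shown, and its matches can lie inside the annotated gene.

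Library totals ran from 31233688 to 89774511 counts, and no pair of libraries was identical. The LSK markers Kit and Ly6a (Sca-1) were present in every library, at 169 to 1451 and 71.2 to 337 CPM (counts scaled to library size). The P0 libraries numbered 1, one WT and one ME, stood apart from the other 6 P0 libraries. The summed level of 14 macrophage markers was 149 and 135 CPM in them and 1499 to 2113 CPM in the others. The 11 neutrophil markers summed to 82.0 and 274 CPM in them and to 6571 CPM or more in the others. P0 values are therefore also given without those libraries. The macrophage sum was 98.5 to 138 CPM in P28 WT, and 66.4 to 101 and 67.2 to 89.1 CPM in the E10.5- and P0-induced groups. In RLT Vav Txp libraries it reached 809 to 3394 CPM. In bulk RNA, fewer cells of a type and less RNA per cell cannot be told apart.

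**Figure D1:**
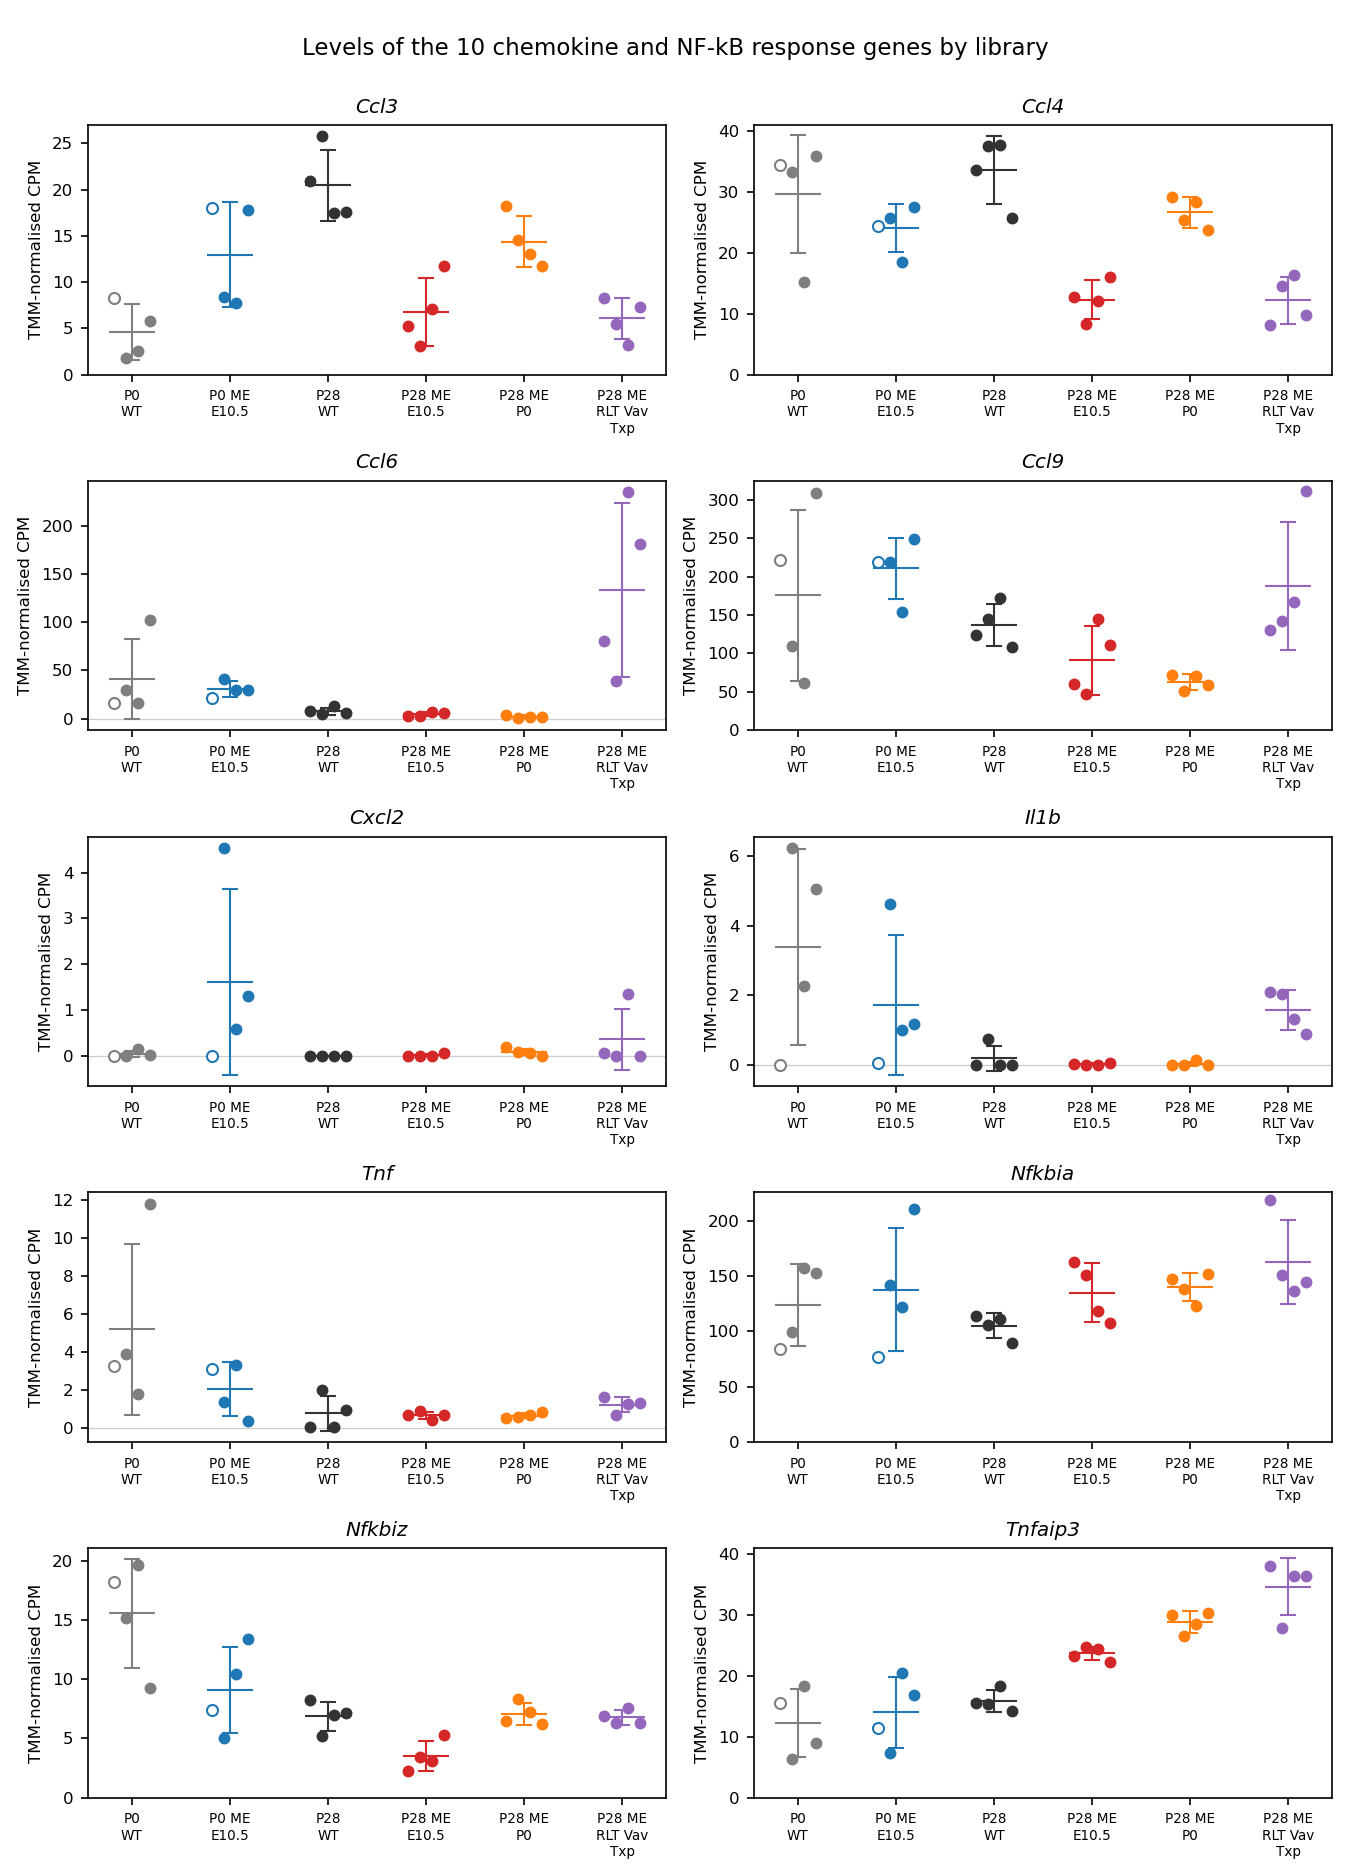
TMM-normalised CPM of each gene (vertical axes, linear, own scale per gene) in the 6 groups of 4 libraries. Points are libraries, open points the P0 libraries numbered 1, lines the group mean and bars 1 SD. Ccl3 was at 17.5 CPM or more in the 4 P28 WT libraries and at 11.7 or less in the E10.5-induced ME libraries, while Ccl6 reached 235 CPM in the RLT Vav Txp group.

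Ccl3, the macrophage inflammatory protein 1 alpha gene, took its lowest mean in newborn WT cells and its highest in P28 WT cells. In P0 WT it was at 8.25, 1.77, 2.50 and 5.81 CPM in libraries 1 to 4. In P0 ME it was at 18.0, 8.38, 7.77 and 17.8 CPM. All but the third P0 ME library lay above every P0 WT library, and the groups overlapped because that library was below WT library 1. The group means were 4.58 ± 3.01 and 13.0 ± 5.67 CPM (SD, n = 4), a log2 fold change of 1.50 (SE 0.44). ME was above WT both between the libraries numbered 1 (18.0 against 8.25 CPM) and between the others (11.3 ± 5.61 against 3.36 ± 2.16 CPM, SD, n = 3), where the ranges did not overlap.

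At P28 the direction was the opposite. P28 WT libraries held Ccl3 at 20.9, 25.8, 17.5 and 17.6 CPM. E10.5-induced ME libraries held it at 5.27, 3.03, 7.04 and 11.7 CPM, each below every WT library. The log2 fold change was -1.60 (SE 0.44), and the ME effect at P28 minus that at P0 was -3.10 (SE 0.62). These values chose the gene and carry no test. ME induced at P0 instead left Ccl3 at 18.2, 14.6, 13.0 and 11.8 CPM, overlapping WT and above every E10.5-induced library (log2 fold changes -0.51, SE 0.43, and 1.09, SE 0.43). In WT, all P28 libraries lay above all P0 libraries, with a log2 fold change of 2.16 (SE 0.45), whereas in E10.5-induced ME the P28 mean was below the P0 mean, at -0.94 (SE 0.43).

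The RLT Vav Txp libraries held Ccl3 at 8.33, 5.44, 3.23 and 7.28 CPM. All 4 were below every P28 WT library. Against P28 WT, the log2 fold change was -1.75 (SE 0.44), 3.37-fold lower. The WT libraries are those whose high values entered the choice of Ccl3, so this carries no test. Against E10.5-induced ME, the log2 fold change was -0.15 (95% interval -1.04 to 0.73), with its sign depending on single libraries. The sum of 9 LSK and stem cell markers was also lower in RLT Vav Txp, at 2100 to 3068 CPM against 4343 to 4935 in P28 WT. Of the 9, 3 were called lower and 1 higher against WT, and 4 lower and 2 higher against E10.5-induced ME. Flt3, a cytokine receptor of multipotent progenitors, fell by 2.40 against WT (SE 0.33, edgeR adjusted p = 7.23e-05), and Cd34 fell by 1.25 (SE 0.20, edgeR adjusted p = 0.000407). The part of these markers in the Ccl3 and Ccl4 values was not tested.

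Ccl4, the neighbouring macrophage inflammatory protein 1 beta gene, was low in the same 2 groups at P28. P28 WT libraries had 33.5, 37.6, 37.6 and 25.6 CPM. E10.5-induced ME libraries had 12.7, 8.28, 12.1 and 16.0 CPM, P0-induced ME 29.1, 25.3, 28.3 and 23.7 CPM, and the RLT Vav Txp group 8.09, 14.6, 16.3 and 9.82 CPM. No library of the E10.5-induced or RLT Vav Txp groups reached the lowest WT or P0-induced library. The E10.5-induced mean of 12.3 ± 3.16 CPM stood beside 33.6 ± 5.63 CPM in WT (SD, n = 4), a log2 fold change of -1.45 (SE 0.26). In the RLT Vav Txp group Ccl4 fell by 1.46 against WT (SE 0.26, edgeR adjusted p = 0.00113). Over the 17 alternatives run the p reached at most 0.00616. RLT Vav Txp and E10.5-induced ME differed by -0.01 (95% interval -0.55 to 0.52, edgeR adjusted p = 0.986), and the sign of so small a value turned with the scaling.

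The P0-induced group was not called different from WT for Ccl4 (log2 fold change -0.33, 95% interval -0.87 to 0.20, edgeR adjusted p = 0.503). It lay above E10.5-induced ME by 1.12 (SE 0.26) in 4 of 4 libraries, which missed the threshold in the edgeR fit over all groups (adjusted p = 0.170). The same difference was called by DESeq2 (adjusted p = 0.00696), by limma voom (adjusted p = 3.24e-05) and in an edgeR fit of only those groups (adjusted p = 0.00190). Newborn cells showed no such separation: Ccl4 was at 34.3, 33.2, 15.1 and 35.9 CPM in P0 WT and at 24.3, 25.8, 18.4 and 27.5 CPM in P0 ME, and the ranges overlapped. Between P0 and P28 in E10.5-induced ME, Ccl4 fell by 0.97 (SE 0.26, edgeR adjusted p = 0.0116), and every P28 library was below every P0 library. Without P28 E10.5-induced replicate 2 the adjusted p was 0.0581.

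Ccl6, a CCR1 ligand made by myeloid cells, had a different pattern and its highest levels in the RLT Vav Txp group. That group had 80.1, 38.7, 234.7 and 181 CPM. P28 WT had 8.30, 4.81, 12.8 and 5.55 CPM, E10.5-induced ME 2.72, 2.56, 7.00 and 5.70 CPM, and P0-induced ME 3.99, 1.22, 2.17 and 1.26 CPM. The lowest RLT Vav Txp library was above the highest library of each other P28 group. Ccl6 was 17.0-fold higher than in WT (log2 fold change 4.09, SE 0.67, edgeR adjusted p = 0.000792). Against E10.5-induced ME it rose by 4.89 (SE 0.70, edgeR adjusted p = 0.000112), or 29.8-fold.

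Macrophage markers moved with Ccl6 in that group. Of the 14 markers, 11 were called higher than in WT and 14 higher than in E10.5-induced ME. Adgre1 (F4/80) was at 29.6 to 182 CPM in the RLT Vav Txp group against 0.12 to 2.60 in P28 WT, and the complement gene C1qa at 105 to 478 against 4.84 to 11.3. The part of macrophage RNA in the Ccl6 difference was not tested. In the P0 libraries numbered 1, whose macrophage sums were near those of P28 WT, Ccl6 was at 16.5 and 21.5 CPM, above the highest P28 WT library. Those libraries also differed from P28 WT in age and tissue, and these parts cannot be told apart.

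Ccl6 was also higher in newborn liver. P0 WT had 16.5, 29.7, 15.9 and 102.7 CPM and P0 ME 21.5, 41.3, 29.7 and 29.5 CPM, and all 8 P0 libraries exceeded all 12 libraries of the P28 groups other than RLT Vav Txp. From P0 to P28 Ccl6 fell by 2.76 in E10.5-induced ME (SE 0.63, edgeR adjusted p = 0.00473). In WT it fell by 2.39 (SE 0.62, edgeR adjusted p = 0.0214), but without P0 WT replicate 4 the log2 fold change was -1.40 with an adjusted p of 0.128. The WT call was also lost without P28 WT replicate 1 (0.0656), 2 (0.0779) or 4 (0.0721). In all, 7 alternatives lost the WT call, 4 of them single omissions. P0-induced ME lay below WT in every library, by 1.86 (SE 0.62), and missed the threshold (edgeR adjusted p = 0.103). DESeq2 (0.0341) and the edgeR fit of only those groups (0.00354) called it.

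**Figure D2:**
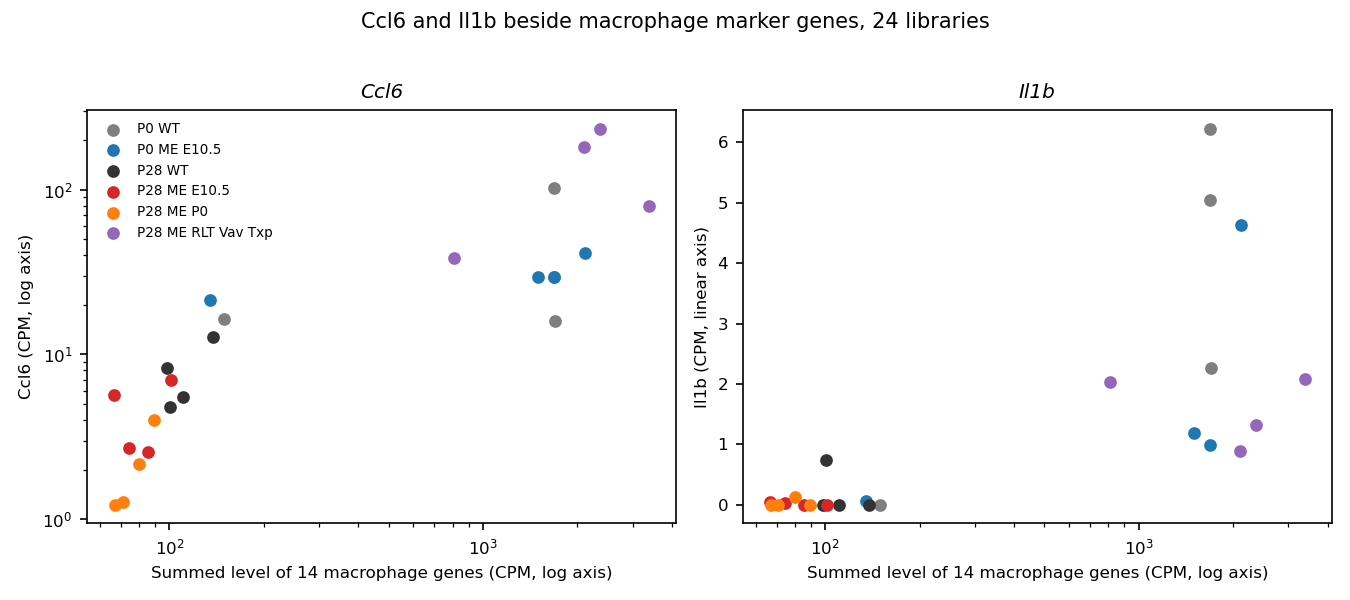
Ccl6 (left, log axis) and Il1b (right, linear axis) in CPM against the summed CPM of 14 macrophage markers (log axis), 1 point per library and 1 colour per group. The RLT Vav Txp libraries and 6 of the 8 P0 libraries lie at 809 CPM or more of macrophage markers, and Il1b reached 0.881 to 6.23 CPM there.

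Ccl9, the macrophage inflammatory protein 1 gamma gene, had the highest mean of the chemokines in P0 WT per length of all annotated exons. It was at 57.7 ± 36.6 CPM per kilobase (SD, n = 4), which did not differ beyond the spread from Ccl4 at 44.9 ± 14.7. By library it was at 221, 110.2, 61.6 and 309 CPM in P0 WT and at 219.5, 219.2, 155 and 249 CPM in P0 ME. P28 WT had 125, 145, 172 and 108 CPM, E10.5-induced ME 60.7, 47.7, 145 and 111 CPM, P0-induced ME 71.7, 50.9, 70.1 and 58.4 CPM, and RLT Vav Txp 130.3, 142, 168 and 311 CPM. The P0-induced libraries were all below WT while the E10.5-induced libraries were split, with a pair below and a pair within the WT range. P0-induced ME was lower than WT by 1.13 (SE 0.39), which missed the threshold in edgeR (adjusted p = 0.107) and passed it with DESeq2 (0.0221) and limma voom (0.00625). In E10.5-induced ME, Ccl9 fell by 1.21 from P0 to P28 (SE 0.39, edgeR adjusted p = 0.0334). That p was 0.0537, 0.0806 and 0.1003 without P0 ME replicate 1, 2 or 4, and 0.130, 0.114 and 0.0503 without P28 E10.5-induced replicate 1, 2 or 4. Altogether 8 alternatives lost the call, 6 of them single omissions. The RLT Vav Txp group exceeded E10.5-induced ME by 1.05 (SE 0.39, edgeR adjusted p = 0.0643) and WT by 0.45 (SE 0.38, edgeR adjusted p = 0.680), neither of which was called in that fit. The difference from E10.5-induced ME was called in 6 alternatives, among them DESeq2 (0.0164), limma voom (0.00416), and the fits without E10.5-induced replicate 3 (0.0370) or RLT Vav Txp replicate 1 (0.0443).

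The order of the 4 cluster genes per kilobase of annotated exons differed between groups. The lengths used were 3045 bases for Ccl9, 1795 for Ccl6, 766 for Ccl3 and 660 for Ccl4. In P28 WT, Ccl4 (50.9 ± 8.52 CPM per kilobase) and Ccl9 (45.2 ± 9.03) stood above Ccl3 (26.7 ± 5.08) and Ccl6 (4.38 ± 2.00, SD, n = 4). The Ccl4 and Ccl9 means differed by less than their spread. In the RLT Vav Txp group the order was Ccl6 (74.5 ± 50.2), Ccl9 (61.7 ± 27.5), Ccl4 (18.5 ± 5.84) and Ccl3 (7.92 ± 2.92). Ccl6 and Ccl9 did not differ beyond their spread there. Reads shared between related chemokine genes could move counts among them, since the handling of such reads is not given in the sources used here.

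Cxcl2, Il1b and Tnf were scarce. Cxcl2 was at 0 in all 4 P28 WT libraries and in 3 of 4 E10.5-induced ME libraries, with at most 2 reads in the fourth. A count of 0 allows up to 3 reads, or 0.0650 CPM averaged over the P28 WT libraries, counting error only. P0 WT had 0, 0, 0.133 and 0.0167 CPM, while P0 ME had 0, 4.54, 0.581 and 1.31 CPM. The P0 ME library at 0 was number 1, and the other 3 lay above every P0 WT library. In ME, Cxcl2 at P0 was at least 30.2-fold higher than at P28, against a floor of 3 reads per library (edgeR adjusted p = 0.0417), and at least 11.8-fold without P0 ME replicate 2. The adjusted p rose to 0.131 and 0.0638 without P0 ME replicate 2 or 4, and to at most 0.114 without P28 E10.5-induced replicate 1, 2 or 3. Cxcl2 did not pass the low-count filter with only those groups, nor the stricter filter of 12 libraries, so neither fit tested it. In the RLT Vav Txp group, replicate 3 alone had 1.35 CPM and the other 3 were at 0.0584 or less.

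Il1b was at 0, 6.23, 2.26 and 5.04 CPM in P0 WT and at 0.0619, 4.63, 0.991 and 1.18 CPM in P0 ME. In both groups the macrophage-poor library numbered 1 was at or near 0. The part of macrophage RNA in these values was not tested. In P28 WT, Il1b was at 0, 0.739, 0 and 0 CPM, in E10.5-induced ME no library had more than 2 reads, and in P0-induced ME 3 libraries were at 0 and the other at 0.125 CPM. The RLT Vav Txp libraries had 2.09, 2.02, 1.32 and 0.881 CPM, above all 12 libraries of the other P28 groups. The difference from WT was not called (edgeR adjusted p = 0.366). Against E10.5-induced ME, Il1b was at least 29.6-fold higher in the RLT Vav Txp group, which was called (edgeR adjusted p = 0.0225). That call was lost without E10.5-induced replicate 1 (0.0618), 2 (0.0736) or 3 (0.0749) and with no low-count filter (0.0546), and Il1b did not pass the stricter filter of 12 libraries. In ME, Il1b at P0 was at least 32.2-fold higher than at P28 (edgeR adjusted p = 0.0200), and at least 14.0-fold without P0 ME replicate 2. The age call was lost without P0 ME replicate 2 (0.0650) or P28 E10.5-induced replicate 1 (0.0550), 2 (0.0689) or 3 (0.0681). With only those groups, or with the stricter filter, Il1b did not pass and its age difference was not tested. Reads of Il1bos, a gene antisense to Il1b, numbered up to 216 in a P0 ME library, and without a stated strand setting reads of that pair cannot be told apart.

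Tnf was at 3.24, 3.90, 1.78 and 11.8 CPM in P0 WT and at 3.08, 1.35, 3.31 and 0.321 CPM in P0 ME. No P28 library exceeded 1.97 CPM. At P28 the WT mean was 0.755 ± 0.913 CPM. The E10.5-induced and P0-induced means were 0.645 ± 0.181 and 0.634 ± 0.127 CPM and that of RLT Vav Txp 1.20 ± 0.398 CPM (SD, n = 4), and these groups overlapped. Between P0 and P28 in WT, the log2 fold change was -2.79 (SE 0.89, edgeR adjusted p = 0.0533). It was called in 8 alternatives and not in 11. Those that called it included DESeq2 (adjusted p = 0.00830), limma voom (0.0173) and the fit without the P0 libraries numbered 1 (0.0448).

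Nfkbia, the IkB alpha gene, varied little. P28 WT libraries were at 114, 106, 111 and 89.8 CPM, E10.5-induced ME at 163, 151, 119 and 107 CPM, P0-induced ME at 147, 138, 123 and 152 CPM, and RLT Vav Txp at 219, 151, 136 and 145 CPM. Each P0-induced and each RLT Vav Txp library lay above the highest WT library. The log2 fold changes were 0.41 (SE 0.23, edgeR adjusted p = 0.330) and 0.63 (SE 0.23, edgeR adjusted p = 0.156), and neither was called in the fit over all groups. Fits of only the groups compared called both (0.0159 and 0.0362), and the second was also called in a fit that set the P0 libraries numbered 1 apart (0.0482). In newborn cells Nfkbia was at 84.4, 99.5, 158 and 153 CPM in WT and at 77.1, 141, 122 and 211 CPM in ME, with the lowest value of each group in the library numbered 1. Without that pair the means were 137 ± 32.3 and 158 ± 46.7 CPM (SD, n = 3).

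Tnfaip3, the A20 gene, stepped up from WT through the ME groups at P28. WT libraries had 15.5, 15.4, 18.4 and 14.2 CPM, E10.5-induced ME 23.3, 24.7, 24.5 and 22.2 CPM, P0-induced ME 30.0, 26.5, 28.5 and 30.4 CPM, and RLT Vav Txp 38.0, 27.8, 36.4 and 36.5 CPM. WT, E10.5-induced and P0-induced libraries formed 3 ranges that did not overlap, and RLT Vav Txp overlapped the P0-induced range through replicate 2. Against WT, Tnfaip3 rose by 1.13 in the RLT Vav Txp group (SE 0.28, edgeR adjusted p = 0.0176), a 2.18-fold difference. That adjusted p was 0.0551, 0.0580 and 0.0610 without P28 WT replicate 1, 2 or 4. P0-induced ME was higher than WT by 0.86 in 4 of 4 libraries (SE 0.28) and missed the threshold in edgeR (adjusted p = 0.0880), while DESeq2 (0.0486) and limma voom (0.00157) called it. The E10.5-induced value, given as a description, was 0.58 (SE 0.28), and its lead by the P0-induced group was 0.28 (SE 0.28, edgeR adjusted p = 1). In newborn cells the groups overlapped, at 15.5, 6.30, 18.3 and 8.95 CPM in WT and 11.5, 7.30, 20.5 and 16.8 CPM in ME.

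Nfkbiz, the IkB zeta gene, was lower at P28 than at P0 and lowest in E10.5-induced ME. P0 WT had 18.2, 15.2, 19.6 and 9.25 CPM and P0 ME 7.38, 5.08, 10.4 and 13.4 CPM. P28 WT had 8.22, 5.24, 6.95 and 7.11 CPM, E10.5-induced ME 2.28, 3.45, 3.11 and 5.28 CPM, P0-induced ME 6.48, 8.31, 7.21 and 6.18 CPM, and RLT Vav Txp 6.94, 6.29, 7.59 and 6.33 CPM. The E10.5-induced range met the WT range at 1 library and lay under the P0-induced and RLT Vav Txp ranges. The RLT Vav Txp group was higher than E10.5-induced ME by 0.94 (SE 0.32, edgeR adjusted p = 0.0396). That call was lost without E10.5-induced replicate 1 (0.158), 2 (0.0945) or 3 (0.111), and without any one of the 4 RLT Vav Txp libraries (0.0534 to 0.102). Of the 8 alternatives that lost it, 7 were single omissions. The RLT Vav Txp group was not called different from WT (log2 fold change -0.02, 95% interval -0.66 to 0.62, edgeR adjusted p = 0.992).

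From P0 to P28 Nfkbiz fell by 1.18 in WT (SE 0.32, edgeR adjusted p = 0.0215) and by 1.36 in E10.5-induced ME (SE 0.32, edgeR adjusted p = 0.00427). The fall in ME kept an adjusted p of at most 0.0322 in every alternative run. The fall in WT lost its call without P0 WT replicate 3 (0.0690) or P28 WT replicate 2 (0.0821), 3 (0.0549) or 4 (0.0512). These 4 omissions were among 7 alternatives that lost it. The immediate early genes, which handling of tissue can also induce, were higher at P0: their summed level was 510 to 832 CPM in P0 libraries and 318 to 461 CPM in P28 libraries. Their part in the age difference of Nfkbiz was not tested.

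**Figure D3:**
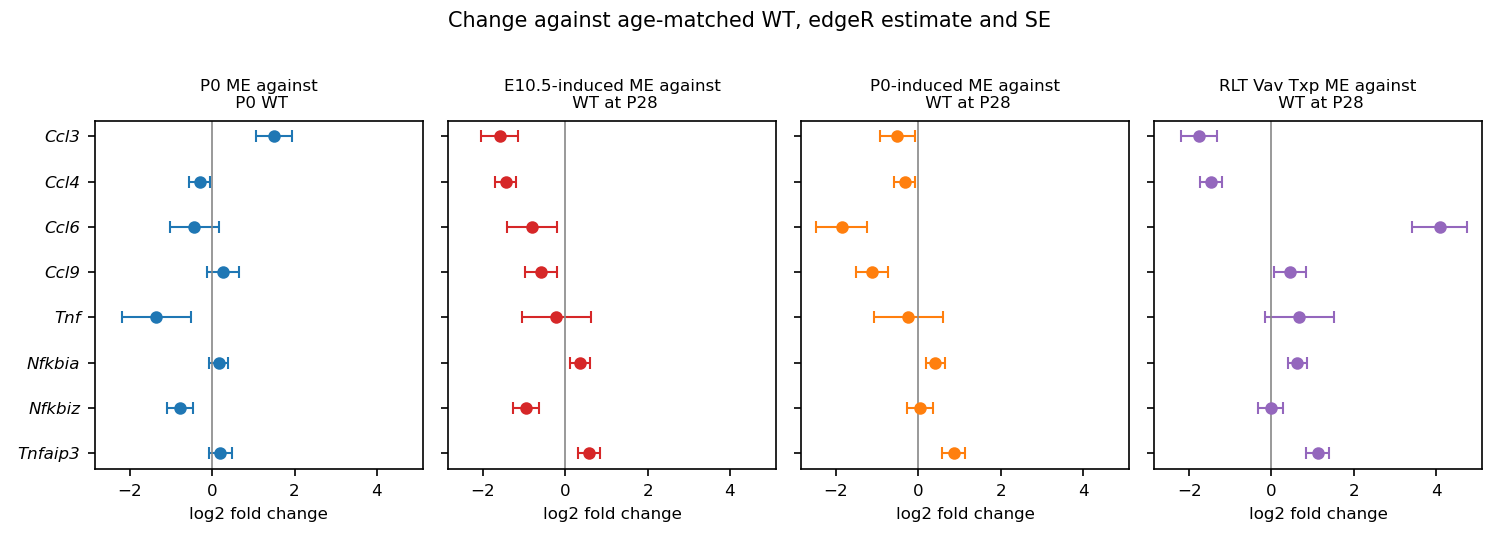
edgeR log2 fold change with its SE (bars) for 8 of the genes against age-matched WT, 4 libraries per group. Cxcl2 and Il1b are left out because a group was at the floor of 3 reads. Ccl3 is at 1.50 in newborn cells and at -1.60 and -1.75 in the E10.5-induced and RLT Vav Txp groups at P28, and Ccl6 is at 4.09 in the RLT Vav Txp group.

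Counts of members called are given beside the share of all genes called, which itself ran from 0.0477% to 18.2% over the comparisons. With so few members, a difference in counts between comparisons is not read as a trait of the members. RLT Vav Txp against WT at P28 called 3 of the 9 members other than Ccl3, Ccl6 and Tnfaip3 higher and Ccl4 lower, where 4.12% of all 23059 genes tested were called (2.64% higher, 1.48% lower). Between those groups 6 of all 10 members did not overlap (4 higher, 2 lower), beside 11.5% of all genes (7.02% higher, 4.45% lower). The 2 lower members were Ccl4 and Ccl3, and the WT values of Ccl3 entered its choice, so nothing is read from its part in this count. Against E10.5-induced ME, 3 were called, all higher (Ccl6, Il1b and Nfkbiz), beside 17.9% of all genes (8.5% higher). There 4 did not overlap, all higher, beside 25.7% (11.6% higher). The median log2 fold change of the members was 0.65 against WT and 0.92 against E10.5-induced ME, where the medians of all genes were 0.01 and 0.12.

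P0-induced ME against WT called 0 of the 10 members in edgeR, beside 1.57% of all genes. There, 4 members had an unadjusted p under 0.05, and DESeq2 called 3 and limma voom 2. Non-overlapping members numbered 4, Nfkbia and Tnfaip3 above and Ccl6 and Ccl9 below WT, beside 24.8% of all genes (14.4% above, 10.4% below). P0-induced against E10.5-induced ME also called 0 members in edgeR, beside 0.0477% of all genes, with 3 members at an unadjusted p under 0.05, and 1 and 3 called by DESeq2 and limma voom. All 4 members that did not overlap (Ccl3, Ccl4, Nfkbiz and Tnfaip3) were higher with induction at P0, beside 11.8% of all genes (4.58% higher). Ccl3 is counted among these 4 and among the 3 at an unadjusted p under 0.05. Its E10.5-induced values entered its choice, so nothing is read from its part in these counts.

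Between P0 and P28 in WT, 2 of the 9 members other than Ccl3 were called, Ccl6 and Nfkbiz, both lower, beside 7.68% of all genes (3.12% higher, 4.56% lower). With Ccl3, 3 members did not overlap, beside 9.27% (4.89% higher, 4.38% lower). In E10.5-induced ME 6 members were called, all lower at P28 (Ccl4, Ccl6, Ccl9, Cxcl2, Il1b and Nfkbiz), beside 18.2% of all genes (8.45% lower). Of these members, Cxcl2 and Il1b did not pass the low-count filter when only those groups were fitted. Of the members, 5 did not overlap, Tnfaip3 above and 4 below, beside 25.4% (14.4% above, 11% below). The members' median there was -1.28 and that of all genes -0.18. Macrophage markers fell with age too, with 10 of 14 called lower in WT and 12 of 14 in ME. Without the P0 libraries numbered 1 the WT comparison called 5 of all 10 members. The comparisons that the choice of genes drew on are counted only for completeness, and nothing is read from them. There edgeR called 0 of 10 at P0 (0.642% of all genes), 3 in E10.5-induced ME against WT at P28, all lower (12.3%, with 4.44% lower), and 1 in the difference between the ages (0.72%). Non-overlapping members numbered 0 at P0 (3.74% of all genes) and 3 at P28, 1 above and 2 below (28.2%, with 16.6% above and 11.6% below).

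The receptors for these ligands and the pathway behind them were read from lists of other genes. Of 15 chemokine, IL-1 and TNF receptors, 3 were called higher and 1 lower in RLT Vav Txp against WT. There 11 of 14 macrophage and 5 of 10 monocyte markers were called higher. Of all genes 2.64% were called higher and 1.48% lower. Ccr2, the receptor that draws monocytes from the marrow and itself on the monocyte list, rose by 3.41 (SE 0.47, edgeR adjusted p = 6.43e-05). Il1r1, the signalling receptor for interleukin 1, fell by 1.38 (SE 0.29, edgeR adjusted p = 0.00529). Between P0 and P28 in WT, 2 receptors were called higher and 6 lower, beside 3.12% and 4.56% of all genes. Ccr1, a receptor for CCL3, CCL6 and CCL9, fell by 4.03 (SE 0.84, edgeR adjusted p = 0.00380), and Il1r2, the decoy receptor for interleukin 1, fell by 3.09 (SE 0.41, edgeR adjusted p = 3.22e-05). Cxcr2, the receptor for CXCL2, fell by 1.85 (SE 0.49, edgeR adjusted p = 0.0200). In the same comparison 8 of 11 neutrophil markers (median -5.86), 10 of 14 macrophage markers and 5 of 10 monocyte markers were called lower, and their part in the receptor values was not tested.

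Of 16 other chemokine genes, 13 were tested, and 6 were called higher in RLT Vav Txp against WT, where 2.64% of all genes and 11 of 14 macrophage markers were. The part of macrophage RNA in these values was not tested. Cxcl12, which holds stem cells in the marrow niche, rose by 3.46 (SE 0.87, edgeR adjusted p = 0.0224), and the interferon-inducible Cxcl10 rose by 2.47 (SE 0.71, edgeR adjusted p = 0.0447). Ccl25, a chemokine that draws T cell precursors to the thymus, fell in both other ME groups at P28. It was lower than WT by 1.19 with induction at E10.5 (SE 0.26, edgeR adjusted p = 0.00618) and by 1.03 with induction at P0 (SE 0.26, edgeR adjusted p = 0.0478).

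The genes that carry the NF-kB signal were listed apart from the genes it induces. Of 20 subunits, kinases and adaptors, 8 were called higher in E10.5-induced ME against WT at P28. There 2827 of all 23059 genes (12.3%) were called in either direction, 1804 of them higher. Tab3, Ripk1 and Map3k7 (TAK1), which relay the receptor signal to IkB kinase, rose by 1.26 (SE 0.36), 1.18 (SE 0.37) and 1.12 (SE 0.27), with edgeR adjusted p values of 0.0214, 0.0395 and 0.0101. The count depended on the scaling, at 3 with RLE factors and 1 with plain totals. The list's median log2 fold change was 0.57 with TMM, 0.49 with RLE and 0.44 with plain totals, where all genes had medians of -0.10, -0.18 and -0.23. In P0-induced ME, edgeR called 0 of the 20, with 14 at an unadjusted p under 0.05, all higher, and DESeq2 and limma voom called 1 and 16. The median there was 0.47.

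The RLT Vav Txp group was not called different from WT in any of the 20 in edgeR, with 3 at an unadjusted p under 0.05, 2 called by DESeq2 and 1 by limma voom. Against E10.5-induced ME 5 of the 20 were called lower. Of all genes there 17.9% were called in either direction, 2163 of 4122 lower. The 5 included Traf6, an adaptor of interleukin 1 and Toll-like receptor signalling (-1.12, SE 0.25, edgeR adjusted p = 0.00354). The NF-kB subunit Rel fell by 1.01 (SE 0.26, edgeR adjusted p = 0.00993) and Rela by 0.80 (SE 0.19, edgeR adjusted p = 0.00524). RLE factors and plain totals each called 4 lower. From P0 to P28 in E10.5-induced ME, 9 of the 20 were called higher. In that comparison 18.2% of all genes were called in either direction, 2257 of 4206 higher. Map3k14 (NIK), the kinase of the noncanonical pathway, rose by 1.57 (SE 0.41, edgeR adjusted p = 0.00883), and its partner subunit Relb by 1.18 (SE 0.32, edgeR adjusted p = 0.0113). In WT, Map3k14 rose by 2.80 (SE 0.43, edgeR adjusted p = 0.000169).

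**Figure D4:**
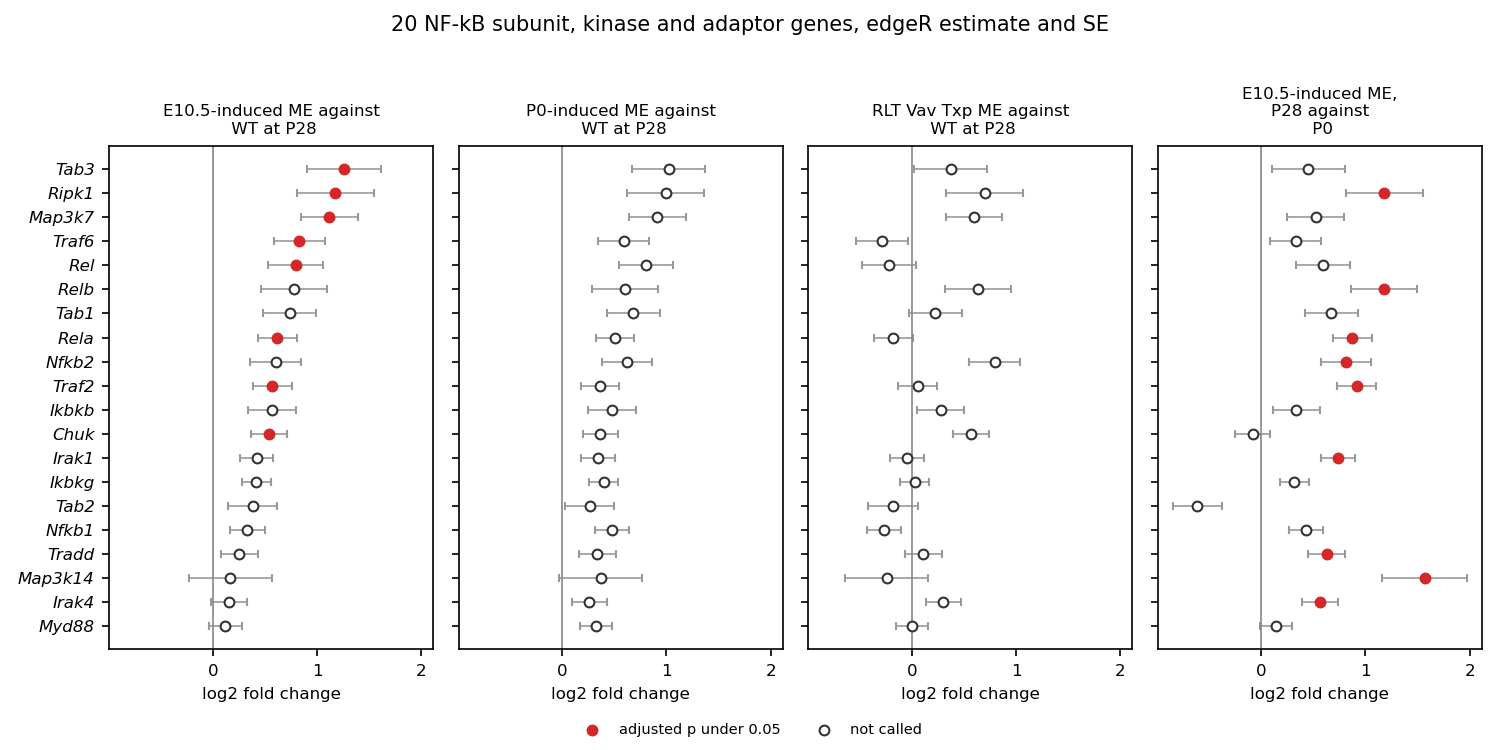
edgeR log2 fold change with its SE (bars) for 20 NF-kB subunit, kinase and adaptor genes in 4 comparisons; filled points are called at an adjusted p under 0.05 and open points are not. With TMM scaling 8 genes are called in E10.5-induced ME against WT, 0 in P0-induced and in RLT Vav Txp ME, and 9 from P0 to P28.

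Among 15 other inhibitors and feedback genes of NF-kB, 3 were called higher and 1 lower in E10.5-induced ME against WT. Of all genes there 12.3% were called (4.44% lower). Cyld, a deubiquitinase that restrains NF-kB, rose by 0.85 (SE 0.20, edgeR adjusted p = 0.00722). Irak3, an inhibitory relative of the interleukin 1 receptor kinases, was called higher in ME at both ages in edgeR. It rose by 1.08 at P0 (SE 0.18, edgeR adjusted p = 0.00258) and by 0.69 in E10.5-induced ME at P28 (SE 0.18, edgeR adjusted p = 0.0122). At P0 edgeR called 2 of the 15 genes, beside 0.642% of all genes, while DESeq2 called 3 and limma voom 0. Tnip3, a partner of A20, fell by 0.63 in E10.5-induced ME (SE 0.21, edgeR adjusted p = 0.0477), and was higher by 1.28 in RLT Vav Txp than in that group (SE 0.21, edgeR adjusted p = 0.000263).

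Of 17 other NF-kB target genes, 16 were tested, and 2 were called higher in RLT Vav Txp against WT and 6 against E10.5-induced ME. Of all genes, 2.64% and 8.5% were called higher there. Cd83, a surface protein of activated antigen-presenting cells, rose by 3.46 (SE 0.63, edgeR adjusted p = 0.00153) and 3.74 (SE 0.64, edgeR adjusted p = 0.000479), in the comparisons where 11 and 14 of 14 macrophage markers rose. Among 8 genes of interleukin 1 processing, Il18 fell by 1.30 in E10.5-induced ME against WT (SE 0.28, edgeR adjusted p = 0.00568). Casp4, an inflammatory caspase, fell by 0.87 (SE 0.22, edgeR adjusted p = 0.0125). Both were higher in RLT Vav Txp than in E10.5-induced ME, by 1.34 (SE 0.28, edgeR adjusted p = 0.00257) and 0.92 (SE 0.22, edgeR adjusted p = 0.00644).

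Likeness to other genes was described by Pearson's r of log2 CPM over the 24 libraries, which share depth and group structure, among 9642 genes. Ccl6 was most like Apoe, Cd302 and Lgals3 (r = 0.93, 0.93 and 0.92), and within groups these values were 0.51, 0.57 and 0.45. Il1b was most like Cybb, a subunit of the phagocyte oxidase (0.91, within groups 0.87). Ccl4 was most like the cytokine gene Il15 (0.86, within groups 0.58), Ccl3 like Wasl (0.79, 0.67), Ccl9 like Vamp7 (0.86, 0.75), Tnfaip3 like Fchsd1 (0.86, 0.69) and Nfkbia like Ucp2 (0.77, 0.81). The leading genes were Slc8b1 for Cxcl2 (0.78), Atp2b1 for Tnf (0.77) and Prnp for Nfkbiz (0.78, within groups 0.29). Between members, r was 0.78 for Ccl6 with Ccl9 (within groups 0.64) and 0.73 for Ccl6 with Il1b (0.19). The neighbours Ccl3 and Ccl4 had r = 0.46 (within groups 0.31), and Ccl4 with Tnfaip3 had -0.59 (within groups -0.42).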

How the data were processed

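Raw read counts per Ensembl gene were deposited by the authors as 1 table of 24 libraries. Per the submitters' processing notes, STAR 2.7.9a, Subread, featureCounts 2.0.3 and GRCm38 were used. Per the labels' protocols, RNA came from a Qiagen RNeasy Plus kit and libraries from a Clontech kit. The strand setting and the handling of multiply mapped reads are not given in the sources used here. Of 55774 entries, 287 that repeated 168 gene IDs with the same counts were dropped. filterByExpr (minimum count 10) left 23059 genes. After TMM scaling, the robust quasi-likelihood model of edgeR 4.0.16 was fitted in R 4.3.3, with 1 mean per group and 18 residual degrees of freedom. Calls were made at a Benjamini-Hochberg adjusted p under 0.05 over all genes tested. Fold changes are log2, and log2 CPM used a prior count of 2. CPM are counts per total scaled by TMM, and at the lowest depth 1 CPM equals 31.2 reads. Floors of 3 counts cover counting error only. The 95% intervals come from the edgeR fit, which includes the spread between libraries.

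The members and gene lists were chosen with earlier results of these data known. All members are named, and of each list at most 3 called genes per comparison, those with the largest change and a mean log2 CPM above a minimum of 1, together with fixed markers. Likeness was restricted to genes whose mean log2 CPM reached 3. Alternatives were RLE factors, DESeq2 1.42.0, limma 3.58.1 voom with quality weights, 2 other count filters, fits of only the groups compared, a block for the replicate number and the omission of single libraries. Plain library totals, leaving out the P0 libraries numbered 1 and a term for them were added after seeing the data, as were fold bounds without single libraries. On simulated data for RLT Vav Txp against WT, with 23059 genes, the procedure called 9 of 22859 unchanged genes. It called 38 of 67 genes changed 2-fold, 65 of 67 changed 4-fold and 65 of 66 changed 8-fold. The changed genes were drawn only from genes whose log2 CPM averaged 3 or more. The simulation therefore gives no recovery rate for members below that level, and these rates cannot be carried over to them. Those are Cxcl2, Il1b, Tnf and Nfkbiz, whose log2 CPM averaged -3.50, -1.96, 0.02 and 2.85.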

Additional observations from a re-analysis of the deposited data

Results flagged for a closer look

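In each set of 4 libraries the end value was compared with its nearest neighbour, relative to the range of the set. In 8 of the 60 sets of a gene and a group, 1 library lay far from the other 3, where chance alone sets apart about 1 in 20 for continuous values. That rate does not hold for 3 of the sets, of Cxcl2 or Il1b, whose other libraries are all at 0.

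In P0 WT, Ccl4 was at 15.1 CPM in replicate 3 against 33.2 to 35.9 in the others, Ccl6 was at 102.7 CPM in replicate 4 against 15.9 to 29.7, and Cxcl2 was at 0.133 CPM (12 reads) in replicate 3 against 0.0167 or less. In P28 WT, Il1b was at 0.739 CPM (24 reads) in replicate 2 and at 0 in the others. In E10.5-induced ME at P28, Cxcl2 was at 0.0458 CPM (2 reads) in replicate 4 and at 0 elsewhere. In P0-induced ME, Il1b was at 0.125 CPM (8 reads) in replicate 3 and at 0 elsewhere. In the RLT Vav Txp group, Cxcl2 was at 1.35 CPM (58 reads) in replicate 3 against 0.0584 or less, and Tnfaip3 was at 27.8 CPM in replicate 2 against 36.4 to 38.0. That replicate also had the lowest macrophage marker sum of its group, 809 CPM, and its part in the Tnfaip3 value was not tested.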

How the results depend on the processing

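For the comparisons that the choice of genes drew on, counts are given for completeness and carry no test. Counts of members called, over all 10 with Ccl3 included, are given first under the settings that moved them most. With limma voom they were 5 in E10.5-induced ME against WT at P28 (3 as reported), 2 in P0-induced ME against WT (0), 3 in P0-induced against E10.5-induced ME (0) and 5 in RLT Vav Txp against E10.5-induced ME (3). With DESeq2 they were 1 at P0 (0), 2 in the difference between ages (1), 3 in P0-induced ME against WT and 1 in P0-induced against E10.5-induced ME. Fits of only the groups compared called 0, 5 and 2 in the last 3, and 1 between P0 and P28 in WT (3). Without a low-count filter 1 was called in RLT Vav Txp against E10.5-induced ME and 1 between P0 and P28 in WT, and without the P0 libraries numbered 1 the latter called 5. The cause was not tested.

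Leaving out single libraries gave 0 to 1 members called at P0, 1 to 3 in E10.5-induced ME against WT, 0 to 2 in the difference between ages, 0 to 0 in both comparisons of P0-induced ME, 3 to 4 in RLT Vav Txp against WT, 1 to 3 against E10.5-induced ME, 1 to 4 between P0 and P28 in WT and 2 to 7 in ME. The ME count of 6 fell to 2 without P28 E10.5-induced replicate 2 and to 3 without its replicate 1 or P0 ME replicate 2. The E10.5-induced count of 3 fell to 1 without E10.5-induced replicate 1, 2 or 3 or WT replicate 2, and the RLT Vav Txp count of 3 against that group fell to 1 without E10.5-induced replicate 1 or 2. The WT age count of 3 fell to 1 without P28 WT replicate 4. The single call in the difference between ages was that of Ccl3, whose values there chose the gene. It was lost without P0 ME replicate 4, P0 WT replicate 3, E10.5-induced replicate 1 or 2 or P28 WT replicate 1 or 2. Without P0 WT replicate 4, 2 members were called. At P0, 1 was called without P0 WT replicate 1.

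Sign changes occurred for small values that were not called. At P0, single omissions took Ccl9 from 0.26 to -0.05, Nfkbia from 0.15 to -0.17 and Tnfaip3 from 0.19 to -0.06. The others were in RLT Vav Txp against E10.5-induced ME. Ccl3 turned from -0.15 to 0.24 and 0.05 without E10.5-induced replicate 4 or RLT Vav Txp replicate 3, within -0.40 to 0.24 over single omissions. Ccl4 turned from -0.01 to 0.060 with the stricter filter, 0.044 with DESeq2 and with RLE factors, 0.21 with limma voom, 0.010 with no filter, 0.015 with plain totals, 0.054 in the fit of those groups, and 0.14, 0.14 and 0.11 without E10.5-induced replicate 4 or RLT Vav Txp replicate 1 or 4, within -0.18 to 0.14.

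Replicate numbers in the labels did not pair the libraries throughout: over 10249 genes, 14 of 40 same-number pairs had a correlation of deviations over 0.1 (median 0.03), 3 of 4 between P0 WT and P0 ME (0.66, 0.05, 0.37 and 0.46), and 8 of 20 libraries correlated best with their own number. With the number as a replicate block on the 20 numbered libraries, members called were 0 at P0, 2 in E10.5-induced ME against WT, 1 in the difference between ages, 0 in both comparisons of P0-induced ME, 3 between P0 and P28 in WT and 5 in ME, where Cxcl2 (adjusted p = 0.0582) and Il1b (0.0668) lost their calls and Tnfaip3 (0.0373) gained one. Over all genes the block raised calls from 362 to 946 in P0-induced ME against WT and from 166 to 331 in the difference between ages.

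Over all genes, calls across the alternatives other than single omissions ranged from 5 to 804 at P0 (148 as reported), 1767 to 6505 in E10.5-induced ME against WT (2827), 41 to 774 in the difference between ages (166), 206 to 5196 in P0-induced ME against WT (362), 11 to 2333 against E10.5-induced ME (11), 722 to 1644 and 2893 to 8112 in RLT Vav Txp against WT (950) and E10.5-induced ME (4122), and 481 to 2994 and 3150 to 5936 with age in WT (1771) and ME (4206). Single omissions gave 7 to 649 in P0-induced ME against WT and 11 to 1653 in the difference between ages.

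Plain library totals moved the median of all genes by -0.13 in E10.5-induced ME against WT, -0.20 in the difference between ages, -0.10 in RLT Vav Txp against WT, 0.11 in P0-induced against E10.5-induced ME and 0.15 between P0 and P28 in WT. Among all genes called in E10.5-induced ME against WT, the share called higher was 63.8% with TMM, 52.2% with RLE and 33.3% with plain totals. The same shares were 65.1%, 43% and 11% in the difference between ages, 31.5%, 13.8% and 14.4% in P0-induced ME against WT, 64%, 61.7% and 53.3% in RLT Vav Txp against WT, 40.6%, 44.1% and 56.8% with age in WT and 56.8%, 58.8% and 67.2% at P0. Cxcl2, Il1b and Tnf rest on few reads, so differences between their low groups were not detectable at this depth.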
